A study of Sus scrofa with 6 samples.

Results

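Calcium enters a cell through channels of the plasma membrane, is held in the endoplasmic reticulum (ER), the Golgi and mitochondria, and returns to the cytosol through release channels. The genes described here encode those channels, the sensors of the ER store, the pumps that fill ER and Golgi, and the mitochondrial uniporter. They were taken from a list of 45 gene symbols, grouped by role, and 40 of the 45 had a row among the 14262 genes of the table. CACNA1C, CACNA2D4, RYR1, P2RX4 and CASR had no row under their symbol and are not analysed here.

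Endometrium, the lining of the uterus, was taken from 6 pregnant Erhualian sows (Sus scrofa, a Chinese breed) on gestation day 12. Of these, 3 were high prolific and 3 low prolific, with 1 library per sow, and the series title sets calcium ion concentration beside litter size. No litter size or calcium value per sow is used here, and no treatment or genetic change is named for either group. Sows are called high 1 to high 3 and low 1 to low 3 by their label numbers, with parities of 5, 8 and 8 in the high and 7, 7 and 5 in the low prolific group. Parity 8 occurred only in high 2 and high 3 and parity 7 only in low 1 and low 2, so at those parities group and parity cannot be told apart. Only high 1 and low 3 shared a parity, that of 5.

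In the uterus, calcium released from the ER by inositol trisphosphate receptors acts in secretion, prostaglandin production and contraction. When the ER store empties, STIM proteins sense the loss and open ORAI channels in the plasma membrane, and SERCA pumps refill the store. Voltage-gated channels are best known in muscle and nerve, while TRP, purinergic and PIEZO channels respond to lipids, ATP, temperature or mechanical force.

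All levels are the deposited normalized read counts, whose sums per library lay between 22663087 and 24270245. These sums are set by the normalization, so the sequencing depth behind a value is unknown and no counting interval is given. Markers of epithelium (5 of 6 measured), stroma (7 of 7), endothelium (5 of 6) and smooth muscle (7 of 8) were all present. The libraries of low 2 and low 3 stood apart in the neutrophil markers, whose 3 measured genes (S100A8, S100A12 and CSF3R) summed to 12991 and 16338 there and to between 108 and 1679 in the other 4 sows. S100A8 and S100A12 carried these sums, while CSF3R was at 44.3 in low 2, the lowest of the 6 sows, at 199 in low 3 and highest in high 1, at 385. CXCR2 and MPO had no row. Keratins also differed in those sows, with KRT7 at 1566 and 1749 and at 2926 or more elsewhere. In whole tissue, fewer cells of a type and less RNA per cell cannot be told apart.

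Over the 40 genes, 6 had an unadjusted p under 0.05 between the groups. Of these, 4 lay higher in high prolific sows (CACNA2D1, CACNA1D, TRPC1 and ORAI2) and 2 lay lower (ORAI1 and PIEZO1). Across all genes the same rule gave 3.83% on the higher and 4.09% on the lower side, 7.92% in either direction, against 15.0% of the 40. The list was chosen with earlier results of these data known. No share or median set beside all genes, here or below, is thus independent evidence. No gene passed after Benjamini-Hochberg adjustment over all genes (limma, 0 of 14262 and 0.0%, with 1129 genes at an unadjusted p under 0.05). The smallest adjusted p among the 40 was 0.619, so every difference below is a measured difference that did not pass. The count of 4 higher genes ran from 3 to 6 when single sows were left out. The count of 2 lower genes was 6 without high 1 and 1 without high 2, high 3, low 2 or low 3.

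The groups did not overlap in 8 of the 40 genes, 20.0% against a background of 13.5% of all genes. In 6 of the 8 the high prolific sows lay above (background 7.18%) and in 2 below (background 6.32%). There was no common direction: 22 of the 40 had a log2 fold change above 0 and 18 below, with a median of 0.038 against -0.0024 over all genes. A log2 fold change is the mean of log2(value + 1) in the high minus that in the low prolific sows. The median absolute log2 fold change was 0.29 against 0.16 over all genes, and the median residual SD within groups 0.28 against 0.23 log2 units, both given as descriptions without a test. A group difference within 1.2-fold was seen in 45.0% of the 40 and in 66.5% of all genes.

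**Figure D1:**
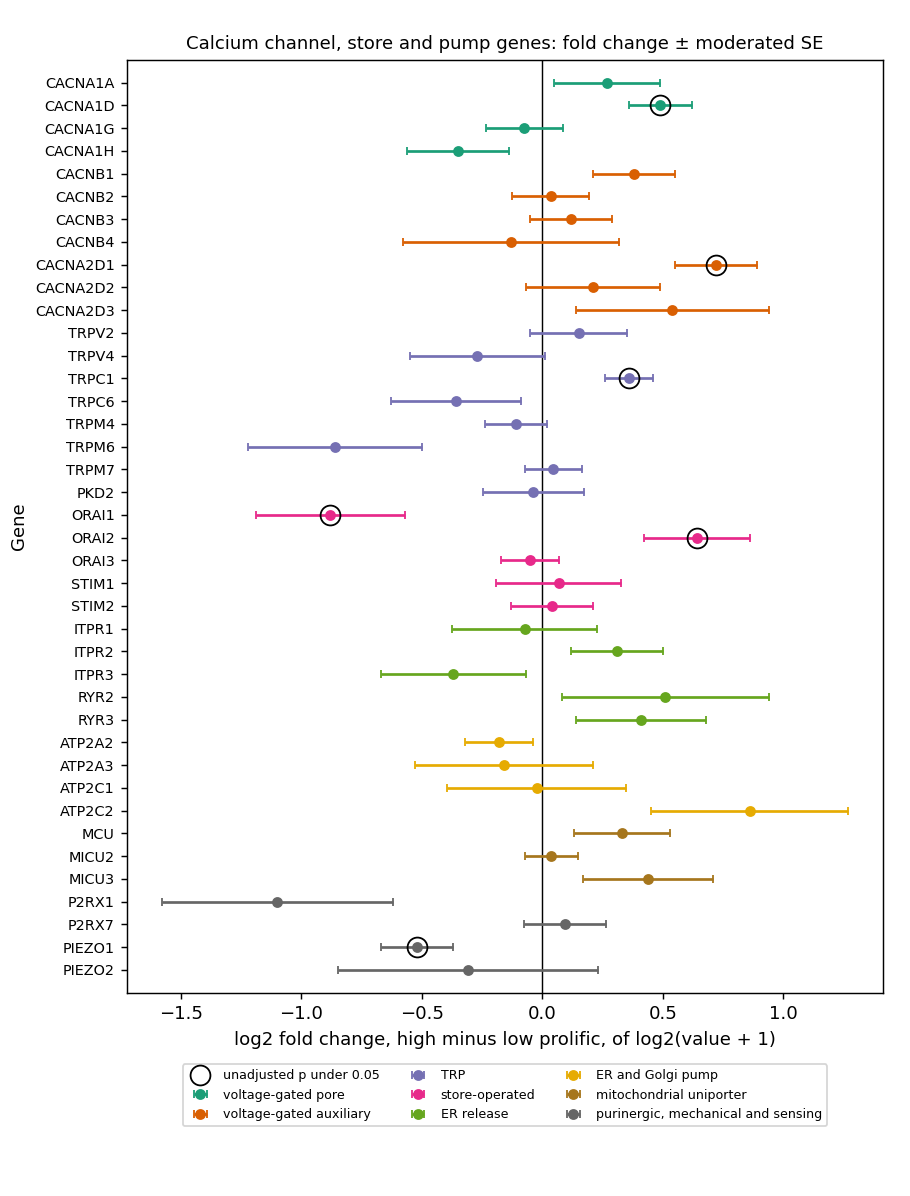
Log2 fold change of log2(value + 1) (horizontal axis, high minus low) of the 40 genes, coloured by role, with the moderated standard error as a bar. Rings mark the 6 genes with an unadjusted p under 0.05, of which CACNA2D1, CACNA1D, TRPC1 and ORAI2 lie right of 0 and ORAI1 and PIEZO1 left of it.

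Among the voltage-gated channels, the α1 subunit forms the pore and sets the channel type. CACNA1D (ENSSSCG00000011455), the pore of the L-type channel Cav1.3, was at 983, 1216 and 1008 in high 1 to high 3 and at 746, 702 and 834 in low 1 to low 3. The lowest high prolific sow thus lay above the highest low prolific one, a 1.40-fold difference on average (log2 fold change 0.49 ± 0.13, SE, limma unadjusted p = 0.00802, adjusted p = 0.619). CACNA1A, the P/Q-type pore of presynaptic terminals, had low counts, at 54.1, 60.9 and 60.6 against 50, 41.9 and 53.4. Its groups did not overlap either but only by the margin from 53.4 to 54.1, with a log2 fold change of 0.27 ± 0.22 (limma unadjusted p = 0.249) that was 0.17 without low 2.

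The T-type pores open at small depolarizations and did not share that direction. CACNA1H was at 1844, 1252 and 1252 in the high and at 1530, 1743 and 2226 in the low prolific sows. High 1 lay inside the low prolific range, while the parity 8 sows high 2 and high 3 were the lowest of the 6 (log2 fold change -0.35 ± 0.21, limma unadjusted p = 0.147). That value was -0.10 without both low 2 and low 3, -0.20 without low 3 and -0.53 without high 1. CACNA1G ranged from 798 to 954 in the high and from 757 to 1035 in the low prolific sows, with full overlap.

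Auxiliary subunits carry the pore to the membrane and tune its gating. Of the 7 measured, 6 had a log2 fold change above 0, against 49.6% of all genes. These 6 included small values, 0.034 in CACNB2 and 0.12 in CACNB3. CACNA2D1 (ENSSSCG00000015402), the α2δ subunit that is the target of gabapentin, was at 2141, 1453 and 1616 in the high and at 953, 1012 and 1176 in the low prolific sows. The gap between the groups, from 1176 in low 3 to 1453 in high 2, was wider than the whole spread of the low prolific sows. Its log2 fold change of 0.72 ± 0.17 (1.64-fold) had the smallest unadjusted p of the 40 (limma 0.00495, adjusted p = 0.619). The difference stayed between 0.55 and 0.85 over the 17 alternatives and its unadjusted p was under 0.05 in each of them, as was that of CACNA1D (0.39 to 0.57).

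CACNB1, a cytoplasmic β subunit known from skeletal muscle, was at 155, 199 and 173 against 132, 130 and 140. Its low prolific sows were nearly equal and all below the high prolific ones (log2 fold change 0.38 ± 0.17, limma unadjusted p = 0.0619). CACNA2D3 was at 107, 94.3 and 105 in the high prolific sows, while low 1 and low 2 were at 67.7 and 40.9 and low 3, at 122, was the highest of all. The β subunits CACNB2 (147 to 185 over the 6 sows) and CACNB3 (185 to 259) overlapped between the groups. CACNA2D2 ranged from 33.1 to 52.1, and CACNB4 spread from 22.9 in low 1 to 73.5 in low 3, within the same group.

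**Figure D2:**
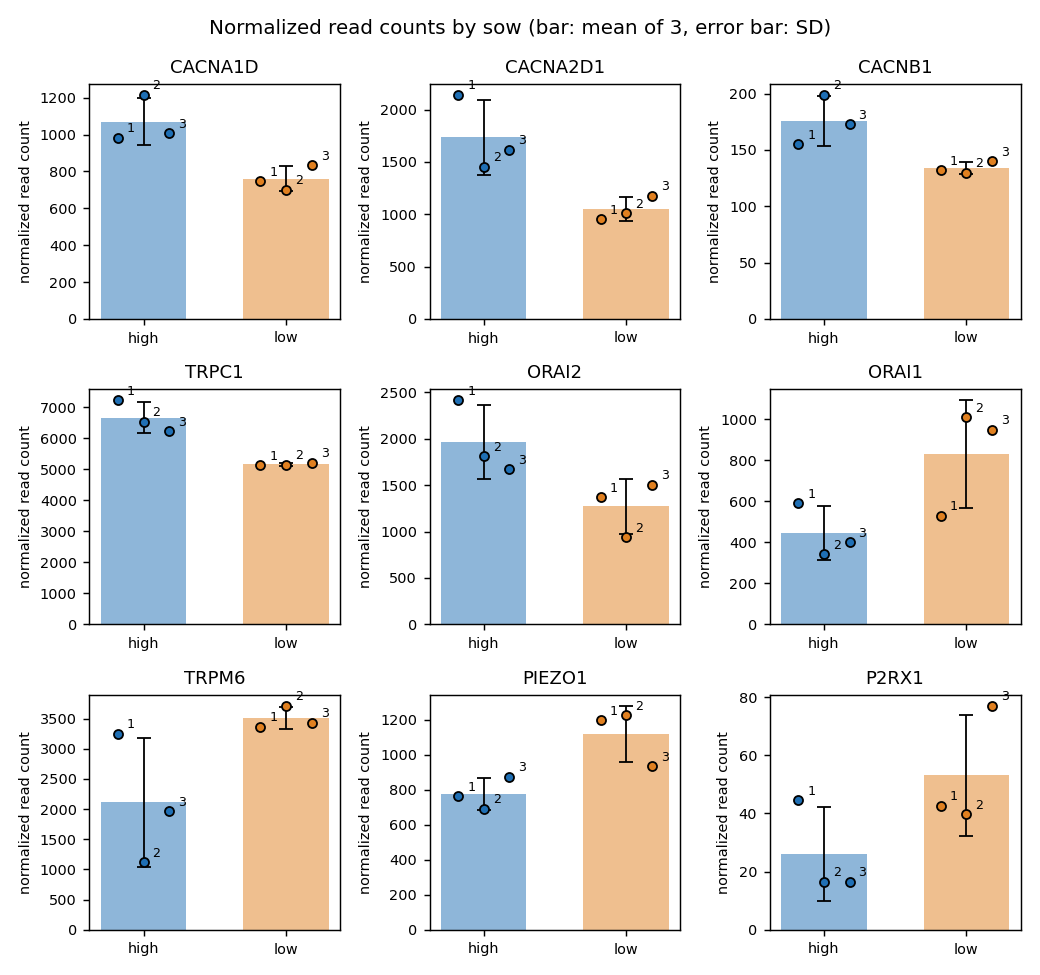
Normalized read counts (linear vertical axes from 0) of 9 genes, with blue for high and orange for low prolific sows, points for single sows with their label number, bars for the mean of 3 and error bars for the SD. CACNA1D, CACNA2D1, CACNB1, TRPC1, ORAI2, TRPM6 and PIEZO1 have groups that do not overlap, while in ORAI1 and P2RX1 high 1 and low 1 lie close together.

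Of the 8 TRP channel genes, 3 had a log2 fold change above 0 and 5 below. TRPC1 (ENSSSCG00000011681), a cation channel subunit linked to phospholipase C signalling and store depletion, was at 7224, 6531 and 6237 in the high and at 5139, 5144 and 5219 in the low prolific sows. The low prolific sows were nearly equal, and all 3 high prolific sows lay above them. The 1.29-fold difference (log2 fold change 0.36 ± 0.10, limma unadjusted p = 0.0102, adjusted p = 0.619) was thus small but had the smallest residual SD of the 40, 0.0772 log2 units. Over the 17 alternatives it stayed between 0.30 and 0.41, with an unadjusted p under 0.05 in 15 of them and of 0.0645 without both low 2 and low 3 (limma).

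TRPM6, a channel fused to a kinase that carries magnesium and calcium across absorbing epithelia, was at 3251, 1117 and 1962 in the high and at 3368, 3711 and 3431 in the low prolific sows. The low prolific sows were tightly grouped and high 1 reached almost to them, while high 2 and high 3 lay far below. Its log2 fold change was -0.86 ± 0.36 (1.82-fold lower, limma unadjusted p = 0.0528), -0.47 without high 2 and -1.24 without high 1. TRPM7, its widely expressed relative, was flat, from 3913 to 4856 over the 6 sows.

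The remaining TRP genes overlapped between the groups. TRPV4, a channel opened by osmotic and mechanical stimuli, was at 52, 68.1 and 51.8 against 81.3, 81.3 and 49.2, with low 3 the lowest of all (log2 fold change -0.27 ± 0.28, limma unadjusted p = 0.373). It was -0.51 without low 3 and -0.15 without low 1 or low 2. PKD2, the polycystin channel of primary cilia and the ER, was at 2337, 2070 and 1646 against 1677, 1938 and 2650, with both ends of the low prolific group near or beyond those of the high (-0.038 ± 0.21, limma unadjusted p = 0.862). TRPC6, a channel opened by diacylglycerol, ranged from 58.1 to 76.9 in the high and from 68.5 to 117 in the low prolific sows. TRPM4, a calcium-activated channel that passes sodium and potassium, ranged from 1195 to 1374 and from 1253 to 1592. TRPV2 lay between 223 and 233 in the high prolific sows and lay outside that narrow range in each low prolific sow (252, 213 and 158).

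Among the store-operated genes, ORAI1 and ORAI2 lay apart in opposite directions. ORAI1 (ENSSSCG00000034510), the pore of the main store-operated channel, was at 592, 342 and 401 in the high and at 530, 1012 and 951 in the low prolific sows. High 1 lay above low 1, so the groups overlapped, and low 2 and low 3 stood well above the other 4. Its log2 fold change was -0.88 ± 0.31 (1.84-fold lower, limma unadjusted p = 0.029, adjusted p = 0.619). Without both low 2 and low 3, the sows with high S100A8 and S100A12, it was -0.29, with low 1 the only low prolific sow left. Low 2, the sow with the highest ORAI1, had the highest S100A12 (7533) and the lowest CSF3R (44.3) of all sows, and S100A8 was highest in low 3 (10857). The part of these neutrophil markers in the difference was not tested. The unadjusted p of ORAI1 was under 0.05 in 11 of the 17 alternatives, and above it without high 2 (0.0921), high 3 (0.0772), low 2 (0.0908) or low 3 (0.0883) among others.

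ORAI2 (ENSSSCG00000023912), a paralog that can join ORAI1 in mixed channels and lowers their current, was at 2414, 1813 and 1669 against 1369, 940 and 1507. All high prolific sows lay above all low prolific ones, with the narrowest gap between 1669 in high 3 and 1507 in low 3. Its log2 fold change was 0.64 ± 0.22 (1.56-fold higher, limma unadjusted p = 0.0271, adjusted p = 0.619). It ranged from 0.43 without low 2 to 0.77 without low 3, and was 0.50 without both low 2 and low 3. With single sows left out, its unadjusted p (limma) was above 0.05 without high 1 (0.0842) or low 2 (0.0634).

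The ratio of ORAI2 to ORAI1 normalized counts, chosen after the values were seen and given without a test, was 4.08, 5.3 and 4.16 in the high and 2.58, 0.929 and 1.58 in the low prolific sows. The ratio depends on transcript length and so does not say which paralog is the more abundant, but its difference between sows does not. It averaged 4.51 ± 0.683 against 1.70 ± 0.833 (SD, n = 3), a log2 difference of 1.52, which was 0.79 without both low 2 and low 3.

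The other store-operated genes did not follow. ORAI3 was the flattest of the 40, from 582 to 693, a 1.19-fold range over all 6 sows. STIM1, the main ER calcium sensor, was at 1956, 1659 and 3005 against 2357, 1571 and 2284 (log2 fold change 0.068 ± 0.26, limma unadjusted p = 0.804), with high 3 above and high 2 and low 2 below the rest. STIM2, the sensor of small store losses, ranged from 351 to 438 in the high and from 325 to 447 in the low prolific sows.

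**Figure D3:**
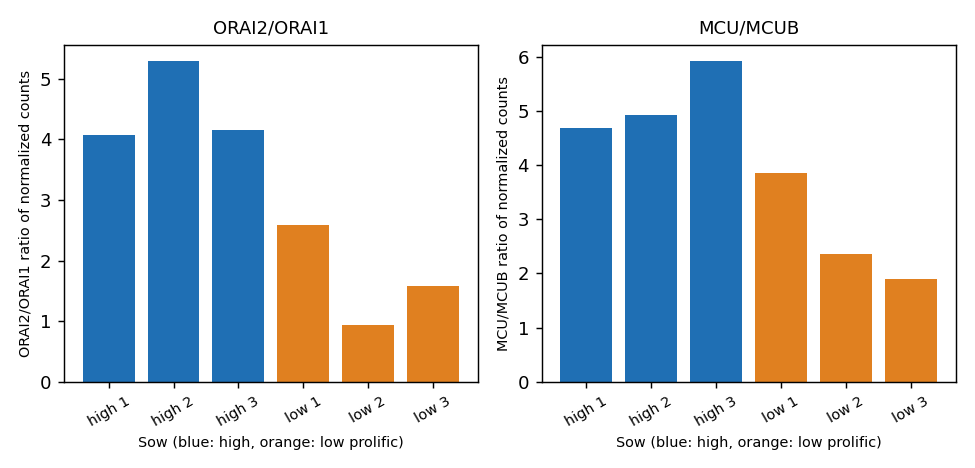
Ratio of ORAI2 to ORAI1 (left) and of MCU to MCUB (right) normalized counts in each sow, on linear axes from 0, blue for high and orange for low prolific. The high prolific sows lie at 4.08 to 5.3 and 4.69 to 5.93, above the low prolific sows at 0.929 to 2.58 and 1.9 to 3.86. Both pairs were chosen after the values were seen, so the separation is no test.

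None of the 5 measured ER release channels separated the groups, and their spread between sows was wide (median residual SD 0.44 log2 units). ITPR1, an inositol trisphosphate receptor, was at 1317, 1066 and 1279 against 912, 1119 and 2051, with low 3 far above the other 5 (log2 fold change -0.074 ± 0.30, limma unadjusted p = 0.811). ITPR2 was at 3028, 3463 and 2231 against 2332, 1987 and 2644 (0.31 ± 0.19, limma unadjusted p = 0.156). That value was 0.17 without high 2, 0.20 without low 2 and 0.49 without high 3 (limma unadjusted p = 0.0273). ITPR3, the isoform typical of secretory epithelia, was at 11244, 6760 and 5650 against 7303, 11836 and 10649. High 1, low 2 and low 3 were thus high in ITPR3, and high 2, high 3 and low 1 low, across the group labels.

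The ryanodine receptors open to calcium itself and are best known in muscle. RYR2 was at 1167, 1150 and 832 in the high prolific sows and at 495, 527 and 1467 in the low, so that low 3 was the highest and low 1 and low 2 the lowest. RYR3 was at 68.6, 49.3 and 48.8 against 36.5, 37.4 and 51 (log2 fold change 0.41 ± 0.27, limma unadjusted p = 0.174), with low 3 again the highest of its group. Its value was 0.25 without high 1. Low 1 was the lowest of the 6 in ITPR1, RYR2 and RYR3. The 7 measured smooth muscle markers summed to between 21666 and 28506 in the high and between 21901 and 31160 in the low prolific sows, and 4 of them (ACTA2, ACTG2, CNN1 and DES) lay lower in high prolific sows without overlap. ACTA2 was at 4881, 2732 and 4779 against 6676, 10018 and 7297, and MYH11 at 13483, 21899 and 11627 against 16882, 13364 and 7666, and the part of these cells in the ryanodine receptor values was not tested.

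Of the 4 pumps of the ER and Golgi, ATP2A2, ATP2A3 and ATP2C1 had similar means in both groups, and ATP2C2 did not. ATP2A2 (SERCA2), the housekeeping ER calcium pump, was at 7985, 7444 and 8027 against 8433, 10464 and 7795. Apart from low 2 the 6 sows lay within a narrow range (log2 fold change -0.18 ± 0.14, limma unadjusted p = 0.248), and the value was -0.053 without low 2. ATP2A3 (SERCA3), typical of epithelial and blood cells, was at 1380, 636 and 566 against 698, 852 and 1168, with its extremes, high 1 and high 3, in one group. ATP2C1, the Golgi pump for calcium and manganese, was at 13651, 6314 and 6709 against 11598, 8622 and 6081. High 1 and low 1 were far above the others in ATP2C1, so its groups had nearly equal means of 8891 and 8767.

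ATP2C2, the Golgi-type pump of secretory epithelia that can also raise calcium entry through ORAI1, was at 432, 522 and 284 against 399, 163 and 164. Low 1 lay within the high prolific range, and low 2 and low 3 were at similar low values (log2 fold change 0.86 ± 0.41, 1.81-fold higher, limma unadjusted p = 0.0799). Without both low 2 and low 3 the value was 0.0026, and without low 1 it was 1.29. The 5 measured epithelial markers summed to between 57922 and 63938 in the high prolific sows and to 69115, 56326 and 43848 in low 1 to low 3, with CDH1 alone without overlap, lower in the high prolific sows. The keratins carried the low sums of low 2 and low 3, while CDH1 was highest in low 2, at 26177, and EPCAM was at 11277 there, second to high 1. In low 3, where ATP2C2 was as low as in low 2, EPCAM was the lowest of all sows, at 7896, and CDH1 was at 19927. The part of epithelial cells in the ATP2C2 difference was not tested.

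The mitochondrial uniporter lets calcium into the matrix, with MICU proteins as its gatekeepers. MCU, the pore, was at 1005, 1029 and 1379 against 1077, 950 and 708, with low 1 inside the high prolific range (log2 fold change 0.33 ± 0.20, limma unadjusted p = 0.155). MICU3 was at 453, 764 and 739 against 574, 355 and 502 (0.44 ± 0.27, limma unadjusted p = 0.15), highest in the parity 8 sows high 2 and high 3. Without both low 2 and low 3 these were 0.064 and 0.15, and MICU3 was 0.68 without high 1 and 0.24 without low 2, while MCU was 0.15 without low 3 and 0.18 without high 3. MICU2 was flat, from 1800 to 2201.

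Among the purinergic and mechanical channels, PIEZO1 had the smallest unadjusted p. PIEZO1 (ENSSSCG00000035230), a channel opened by membrane stretch and known in endothelium and epithelium, was at 762, 692 and 874 in the high and at 1198, 1225 and 936 in the low prolific sows. The groups did not overlap, with the narrowest gap between 874 in high 3 and 936 in low 3 (log2 fold change -0.52 ± 0.15, 1.44-fold lower, limma unadjusted p = 0.0119, adjusted p = 0.619). Its unadjusted p stayed under 0.05 in each of the 17 alternatives, where the log2 fold change ran from -0.65 to -0.45. It was -0.63 without both low 2 and low 3. Endothelial markers summed to between 8406 and 12810 in the high and between 10994 and 19851 in the low prolific sows. All 5 had a log2 fold change below 0, as PIEZO1 had, from -0.90 in PECAM1 to -0.092 in TEK. PECAM1 alone had groups without overlap, lower in the high prolific sows, with means of 2740 against 5133. The endothelial sum was highest in low 3, the low prolific sow with the lowest PIEZO1, and its part in the result was not tested.

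PIEZO2, the stretch channel of sensory neurons and Merkel cells, was scattered, at 56.1, 29.8 and 47.9 against 23.8, 77.9 and 82.8. P2RX1, an ATP-gated channel of smooth muscle, platelets and leukocytes, was at 44.6, 16.6 and 16.6 against 42.7, 39.7 and 77. It had the widest range of the 40, 4.65-fold, with high 1 among the low prolific sows (log2 fold change -1.10 ± 0.48, limma unadjusted p = 0.0605). P2RX1 was lowest in high 2 and high 3, both of parity 8. With parity as a covariate its log2 fold change was -0.80, with a smaller unadjusted p (limma 0.0202, adjusted p = 0.676). P2RX7, the ATP-gated channel of inflammasome activation, ranged from 543 to 789 over the 6 sows, with overlap between the groups.

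Across the 40 genes the extremes were shared among the sows. Low 3 was the highest sow for 12 genes and low 2 the lowest for 13, and high 3 and low 1 were each highest for only 3. Over all genes, low 3 was highest in 22.0% and low 2 lowest in 21.3%. RYR2, ITPR1, CACNB4 and P2RX1 were among the genes highest in low 3, while low 2 and low 3 shared high PIEZO2 and ORAI1 and low ATP2C2.

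**Figure D4:**
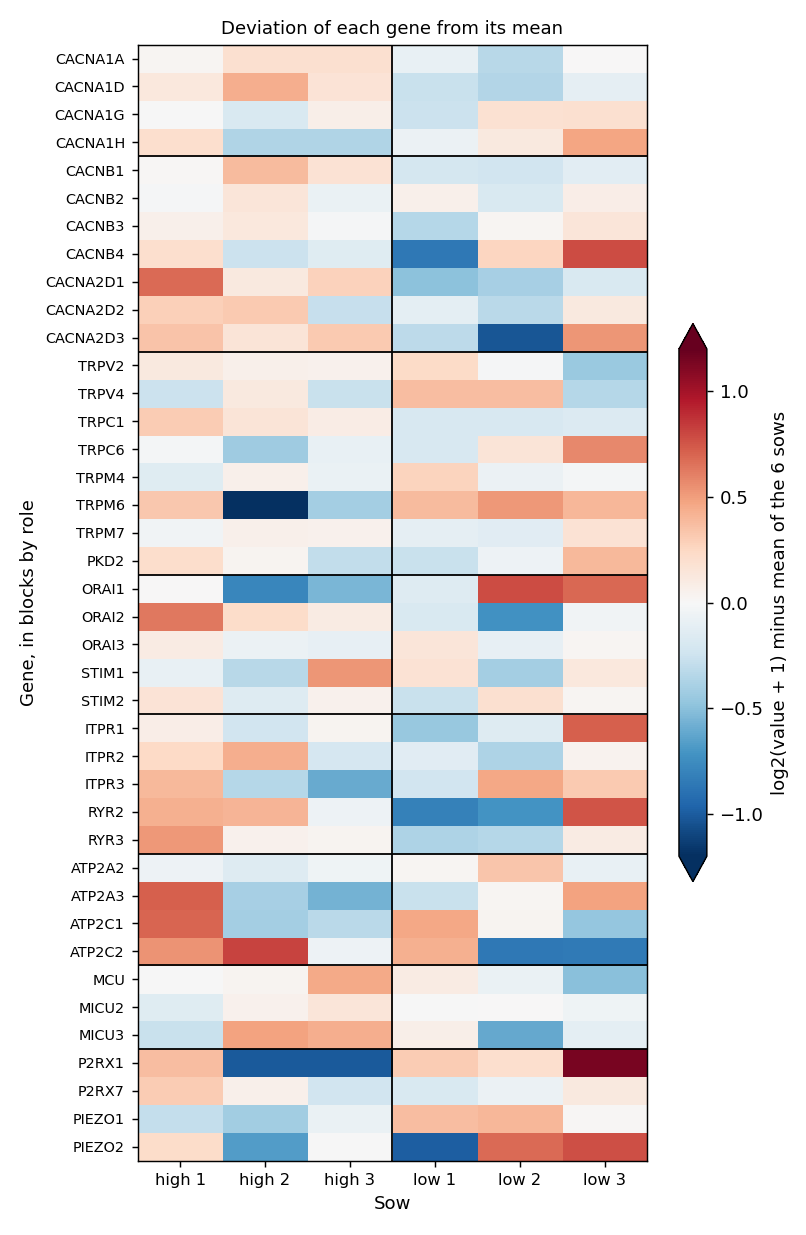
Deviation of log2(value + 1) from the gene's mean over the 6 sows (red above, blue below, colours capped at 1.2 log2 units), with genes in rows by role and sows in columns. CACNA1D and CACNA2D1 are red in the high and blue in the low prolific sows, and ORAI1 and ORAI2 show opposite colours in low 2.

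A list of 78 partner genes, made of other subunits, relatives and regulators of these channels and chosen by role, had 47 measured members. At an unadjusted p under 0.05 there were 2 on the higher and 2 on the lower side, 8.51% in all and thus near the 7.92% of all genes, and 0 passed the adjusted test. TRPA1, a TRP channel of irritant sensing, was at 29.1, 18.4 and 34.2 against 99.7, 90.4 and 214 (log2 fold change -2.20 ± 0.42, limma unadjusted p = 0.00151, adjusted p = 0.619). All low prolific sows lay far above all high prolific ones. TRPM2, a channel opened by oxidative stress, lay the other way, at 678, 614 and 798 against 493, 505 and 334 (0.67 ± 0.20, limma unadjusted p = 0.0143). CACNG5, a small membrane subunit of the voltage-gated and glutamate receptor family, was at 72.8, 90.2 and 48.8 against 34.2, 16.6 and 10.5 (1.85 ± 0.48, limma unadjusted p = 0.00705), and 0.98 without both low 2 and low 3. Counts of TRPA1 and CACNG5 were low, and with a pseudocount of 10 their log2 fold changes were -1.89 and 1.45.

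MCUB, the paralog of MCU that lowers uniporter current, was at 214, 209 and 232 in the high and at 279, 403 and 372 in the low prolific sows. The groups did not overlap (log2 fold change -0.67 ± 0.18, limma unadjusted p = 0.00834, adjusted p = 0.619), and the value was -0.35 without both low 2 and low 3. The ratio of MCU to MCUB normalized counts, also chosen after the values were seen and given without a test, was 4.69, 4.92 and 5.93 against 3.86, 2.35 and 1.90. It averaged 5.18 ± 0.661 and 2.71 ± 1.02 (SD, n = 3), a log2 difference of 0.99 that was 0.42 without both low 2 and low 3.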

How the data were processed

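Endometrial RNA of 6 sows was sequenced with standard Illumina libraries after Trizol extraction, per the labels' protocols. The authors deposited 1 table of normalized read counts, a signal that is not whole and has no fixed total. Subread 1.6, featureCounts and edgeR are named in the submitters' processing notes. No coordinates are printed, since the genome build is not given in the sources used here, nor are the annotation, the strand setting or the kind of normalization. Each of the 14262 genes reached 10 in at least 3 libraries, so genes with low counts had been removed before deposit. A symbol table matched 11977 of the 14262 identifiers.

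The comparison used limma 3.58.1 (R 4.3.3) over all genes. Values were taken as log2(value + 1), the moderation was robust and followed the trend of the variance, and the test was two-sided, with Benjamini-Hochberg adjustment and a threshold of 0.05. A fold change on this scale understates the change of genes with low counts, and folds are 2 to the power of it. Reads of overlapping or antisense genes and near-identical copies could not be separated. In simulations of this comparison over 14262 genes (5 runs, 200 changed genes), the recovery of 2-fold changes was 45.4%, that of 4-fold changes 77.3% and that of 8-fold changes 87.0%, with 4.9% of calls false. The noise was drawn independently for each gene from its residual SD, with no shift shared by many genes of a sow. Recovery and false calls in the real libraries may therefore differ from these shares.

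The members and lists were chosen with earlier results of these data known. Values and tests are given for members with an unadjusted p under 0.05 or groups without overlap, for the 2 smallest p in each role group, and for ATP2A2, ITPR1, STIM1, ORAI1, MCU, PIEZO1, TRPV4 and PKD2. CACNA1C and P2RX4 were also on that list and are not analysed here. The partner genes with an unadjusted p under 0.05 are named. Other members are given by value only. Cell type markers cover smooth muscle, endothelium, epithelium, stroma, leukocytes, neutrophils, mast cells, and neurons and glia. The 17 alternatives change the filter (mean of at least 200), the pseudocount (0.5 or 10), the scaling, the variance model, library weights, parity, the replicate block and the sows included.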

Additional observations from a re-analysis of the deposited data

How the results depend on the processing

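None of the 40 genes passed an adjusted p of 0.05 under any of the 17 alternatives. Over all genes, 0 to 4 were called when single sows were left out (4 without low 1 and 1 without low 2) and 0 otherwise. The 1129 genes at an unadjusted p under 0.05 became 466 to 1872 without single sows (466 leaving out high 2, 632 low 2 and 1872 low 1), and 631 with low 2 and low 3 both left out. The 2 of the 40 genes lower in high prolific sows at that p became 1 to 6 without single sows. The 4 partner genes became 4 to 9 without single sows (9 without low 3), 7 with library weights and 2 at a mean of at least 200. Of the 352 values of the 21 of these genes with a reported test, 338 kept their direction, and 18 of the 21 did so throughout. The filter, the variance model and the replicate block leave a log2 fold change as it was in this design. Their values among the 338 were thus bound to keep their direction.

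The direction turned in 3 genes with differences near 0. PKD2 (-0.038) was 0.007 with columns scaled to the same total, 0.047 with library weights, 0.071 with parity, 0.10 without high 3, 0.15 without low 3 and 0.25 with low 2 and low 3 left out. STIM1 (0.068) was -0.18 leaving out high 3, -0.12 leaving out low 2 and -0.14 leaving out low 2 and low 3. ITPR1 (-0.074) was 0.014 with library weights, 0.057 with parity, 0.02 without high 2, 0.27 without low 3 and 0.41 with low 2 and low 3 left out, and -0.32 without low 1. The cause was not tested.

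Deviations of same-numbered sows from their group means correlated at -0.378, -0.163 and -0.357 across genes. Sows with different numbers correlated at -0.0445 to 0.375, the largest for high 1 and low 3. No likeness of same-numbered sows was thus seen. Deviations within a group of 3 depend on each other, so these values cannot settle whether sows were paired. With the replicate block, 615 genes had an unadjusted p under 0.05, as had 3 of the 40 on the higher and 1 on the lower side, and no gene was called. ORAI1 (0.0752) and TRPC1 (0.0535) then had an unadjusted p above 0.05 with limma. The median log2 fold change of all genes was 0.042 with columns scaled to the same total and 0.033 with quantile normalization, against -0.002. Depth is unknown, so no statement on detection is made.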

Other observations

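Markers of other cell types are given as values without a test. Leukocyte markers (6 of 6 measured) summed to between 2752 and 3629 in the high and between 2949 and 3856 in the low prolific sows. Stromal markers (7 of 7) summed to between 407138 and 567003 in the high and between 478445 and 641243 in the low prolific sows, and 2 of them, PDGFRB and LUM, lay lower in the high prolific sows without overlap. Mast cell markers (3 of 5, with CPA3 and TPSAB1 without a row) summed to between 350 and 694 against 488 and 807, and those of neurons and glia (4 of 6, with SNAP25 and S100B without a row) to between 182 and 335 against 262 and 672.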
